A study of Mus musculus with 6 samples.

Results

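The nuclear genes of the mitochondrial respiratory chain and of mitochondrial protein import were followed in brain RNA of amyloid-forming mice with and without a cross to *Abcc1* knockout mice. Members were all genes of the deposited table whose single annotated symbol begins with Nduf, Uqcr, Sdha to Sdhd, Cox and a digit, Atp5, Timm or Tomm. This rule uses names only and gave 34 genes of 5017, read by 164 probe sets. The deposited table covers only some chromosomes, as given below, so the 34 are a part of these gene families. All genes, in what follows, means the 5017 genes of that table. By name the 34 fall into 8 genes of complex I, 1 of complex II, 4 of complex III, 7 of complex IV, 6 of the ATP synthase, 6 of the inner membrane import complexes (TIM) and 2 of the outer membrane import complex (TOM). The name rule also takes assembly factors and tissue-restricted paralogs, which are pointed out below.

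Total RNA was measured on 6 exon-level whole-transcript arrays of 1 colour, 3 per group. The controls had the genotype APPPS1-FVB and the knockouts, so called in the sample titles, the genotype APPPS1-FVBxABCC1. Both groups therefore carry the APPPS1 background, whose transgenes are driven by the neuronal *Thy1* promoter, and no group without amyloid was analysed here. *Abcc1* encodes a transporter that exports glutathione conjugates. The labels give brain as the tissue with no region, age, sex or batch. No label ties the arrays to separate animals, so each p-value reflects the spread between these 6 samples only, and that spread may be technical.

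The respiratory chain passes electrons from NADH and succinate to oxygen through complexes I to IV and pumps protons across the inner mitochondrial membrane. The ATP synthase uses that gradient to make ATP, on which neurons depend for ion pumping and synaptic transmission. Most subunits are encoded in the nucleus, made in the cytosol and carried in by the TOM complex of the outer membrane and the TIM complexes of the inner membrane. In bulk tissue, fewer cells of a type and less RNA per cell cannot be told apart.

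Each gene's value is the mean log2 signal over all its probe sets, and differences are knockout minus control. Array medians of the tested probe sets ran from 7.04 to 7.09. The neuronal gene *Syt1*, a calcium sensor of synaptic vesicles, averaged 11.61 ± 0.04 (SD, n = 3) over the controls and 11.66 ± 0.03 (SD, n = 3) over the knockouts, as a check of the tissue. Array control features had a median of 4.12 in controls and 4.25 in knockouts, and single tested probe sets can lie below that. *Abcc1* was not analysed here, so the genotype labels could not be checked. Signals of different genes come from different probes and are not compared with each other.

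For 6 members, every probe set has neighbours in the order of probe set numbers that lie on another chromosome than the gene. These are *Ndufc1*, *Cox7a2l*, *Cox7c*, *Atp5f1*, *Timm8a1* and *Timm23*. The same holds for 1 of 4 probe sets of *Uqcr* and 2 of 6 of *Cox5b*. By their neighbours, members' probe sets are placed on chromosomes 1, 10, 11, 12 and 13 only. *Ndufc1* and *Atp5f1* lie on chromosome 3, *Cox7a2l* on 17, *Timm8a1* on X and *Timm23* on 14, where no member's probe set is placed. The annotation names these genes all the same. Whether a probe set placed elsewhere reads the gene or a near-identical copy was not tested. Its values need not be those of the named gene. The counts over all members are given with and without these 6 genes.

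None of the 34 genes passed the limma test at an adjusted p below 0.05 over all 5017 genes, where 0% of all genes passed. The smallest adjusted p of a member was 0.215. Differences were small, from -0.35 for *Ndufb3* to 0.07 for *Cox11*. They leaned low: 24 of 34 members were lower in the knockout and 10 higher, against 51.4% of all genes lower. After quantile normalization 32 of 34 were lower (57.2% of all genes), and after median centring 30 of 34 (60.8% of all genes). Of the 10 higher as deposited, only *Cox11* and *Cox8c* stayed above 0 after quantile normalization, and these with *Uqcrb* and *Timm17a* after median centring. The median difference of the members was -0.04, beside -0.0044 for all genes. It was -0.02 without control 3 and -0.06 without control 2. Without the 6 genes read only at other places, 18 of 28 were lower and the median was -0.03. With 1 array left out in turn, the differences of 7 members stayed within 1.5 times their value, those of 15 moved further but kept their sign, and those of 12 changed sign. The 7 were *Ndufs6*, *Ndufb3*, *Ndufc1*, *Ndufa10*, *Cox7a2l*, *Atp5h* and *Tomm20l*.

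At a raw p below 0.05, 7 members were lower and 0 higher, where 6.12% of all genes were lower and 7.95% higher at that level. The 7 make up 20.6% of the members. Over all genes the split at that level was 307 lower and 399 higher as deposited, 418 and 286 after quantile normalization and 449 and 285 after median centring, while 7 members were lower and 0 higher in these 3 scalings. How probe sets are joined moved the count: it was 4 lower and 0 higher by the brightest probe set of each gene (5.9% of all genes lower), and 6 lower and 1 higher by the median of its probe sets (4.46% of all genes lower). It was 5 lower and 0 higher without the dimmest probe sets (7.65% of all genes lower). With 1 array left out it was 5 or 6 lower and 0 higher (4.13% to 7.28% of all genes lower). Without the 6 genes read at other places, 4 of 28 remain, or 14.3%. The 3 knockout values lay below all 3 control values in 10 members, which 8.85% of all genes did, and above them in 0 members, which 11.3% of all genes did. Without the 6 genes, 7 of 28 lay below and 0 above. These counts are descriptions, and no test of the list was made.

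**Figure D1:**
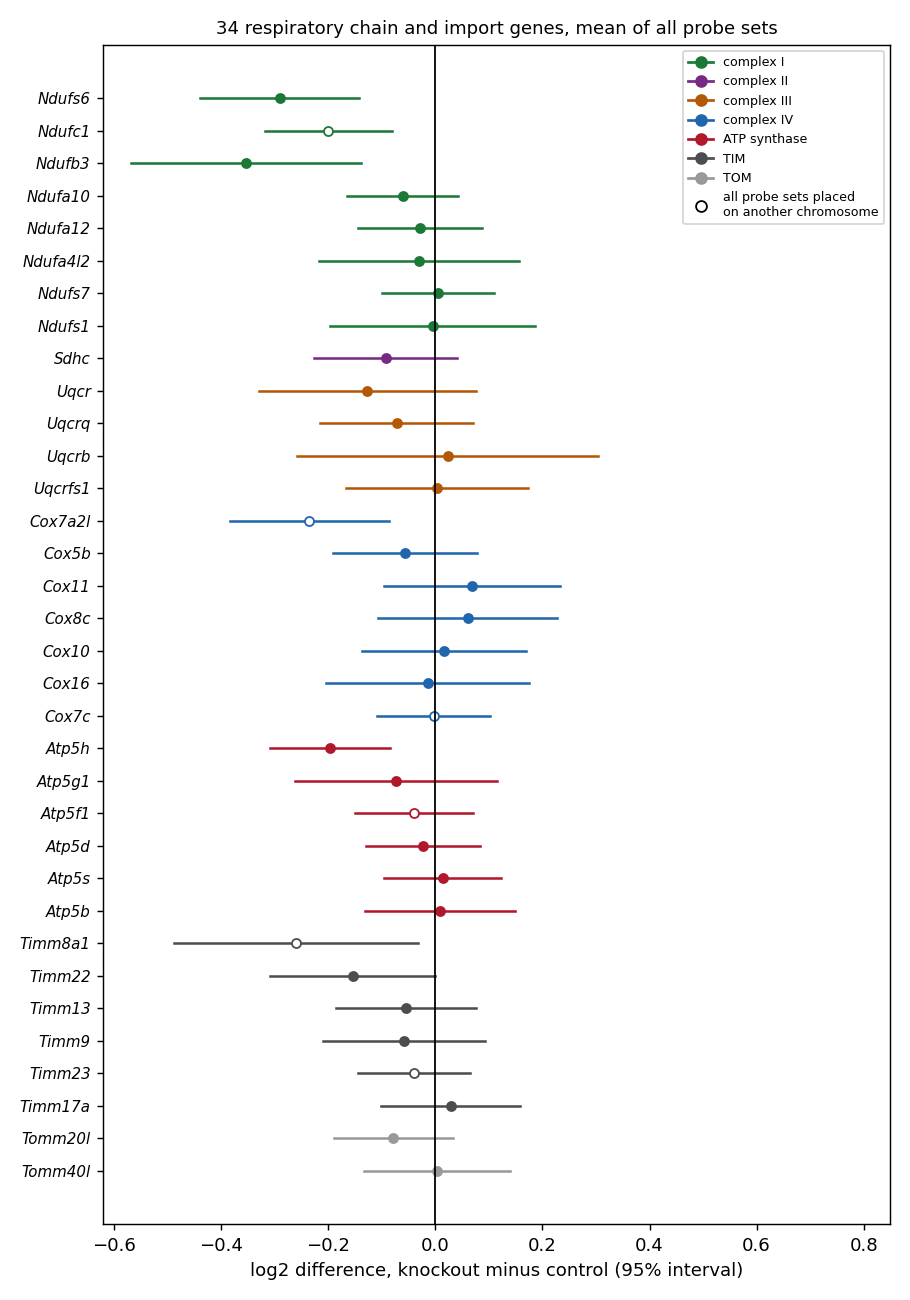
Log2 difference, knockout minus control, of the 34 genes (rows, coloured by complex), with the 95% interval of the limma fit as a line; open points are genes read only by probe sets placed on another chromosome. The intervals of 7 genes lie below 0, with *Ndufb3* lowest at -0.35, and no interval lies above 0.

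**Figure D2:**
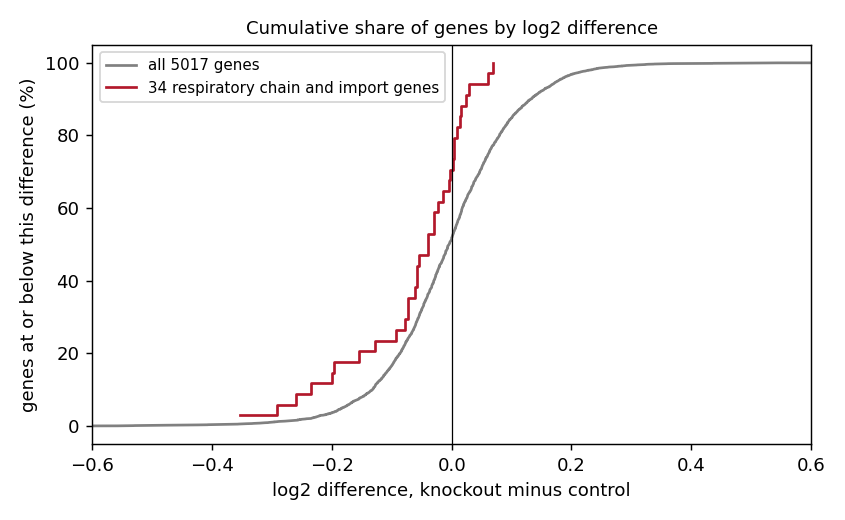
Cumulative share of genes (y axis, percent) at or below a given log2 difference (x axis, knockout minus control) for all 5017 genes and for the 34 respiratory chain and import genes. The members' curve runs from -0.35 to 0.07, and the medians are -0.04 for the members and -0.0044 for all genes. The x axis stops at 0.6 either side of 0.

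Complex I, the NADH dehydrogenase, held the 2 most negative differences of the 34 genes. Of the 8 genes grouped in it by name 7 were lower and 1 higher, with a median of -0.05, and 0 passed. The median was -0.08 without control 2, -0.08 after quantile normalization and -0.125 by the median of probe sets. The 3 lowest, *Ndufb3*, *Ndufs6* and *Ndufc1*, are accessory subunits, which surround the catalytic core. *Ndufs1* and *Ndufs7*, core subunits that carry iron-sulphur clusters, were close to no difference.

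*Ndufs6*, an accessory subunit with a zinc-binding site, read 9.36, 9.27 and 9.38 in the controls and 9.00, 8.98 and 9.16 in the knockouts. All 3 knockout arrays lay below all 3 controls. The log2 difference was -0.29 (SE 0.06, limma adjusted p = 0.215), with a 95% interval from -0.44 to -0.14. Its 4 probe sets all pointed the same way, from -0.49 to -0.10.

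*Ndufb3*, an accessory subunit of the membrane arm, read 7.44, 7.47 and 7.50 in the controls and 7.03, 7.34 and 6.97 in the knockouts. The controls were tight and the knockouts spread, with knockout 2 nearest to the controls. The log2 difference was -0.35 (SE 0.09, limma adjusted p = 0.230), and it ran from -0.47 to -0.28 with 1 array left out in turn. All 3 of its probe sets were lower, from -0.43 to -0.26.

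*Ndufc1*, a small accessory subunit read by 1 probe set placed on chromosome 13 while the gene lies on chromosome 3, had 8.39, 8.38 and 8.41 in the controls and 8.27, 8.15 and 8.16 in the knockouts. The groups did not overlap, and the log2 difference was -0.20 (SE 0.05, limma adjusted p = 0.218). *Ndufa10*, an accessory subunit of the membrane arm, had 10.22, 10.20 and 10.18 in the controls and 10.14, 10.16 and 10.10 in the knockouts. These groups were also apart, by 0.02 at the closest arrays, with a log2 difference of -0.06 with an SE 0.04 (limma adjusted p = 0.566).

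The other genes named for complex I overlapped between groups. *Ndufa12*, an accessory subunit, had a log2 difference of -0.03 (95% interval -0.15 to 0.09), and its 3 probe sets ran from -0.20 to 0.13. *Ndufs7* had 0.0048 (95% interval -0.10 to 0.11), and *Ndufs1*, with 20 probe sets, had -0.0047 (95% interval -0.20 to 0.19). *Ndufa4l2*, a paralog of the subunit gene *Ndufa4*, is grouped here by its name only. It was dim, at 5.49 ± 0.13 (SD, n = 3) in controls, with a difference of -0.03.

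Complex II, the succinate dehydrogenase, was represented in this partial table by *Sdhc* alone, one of its membrane anchors. *Sdhc* read 10.30, 10.29 and 10.32 in the controls and 10.28, 10.25 and 10.11 in the knockouts. Knockouts 1 and 2 lay just below the controls and knockout 3 further down. The log2 difference was -0.09 (SE 0.06, limma adjusted p = 0.501), and all 6 probe sets were lower, from -0.13 to -0.06. Without knockout 3 the difference was -0.04.

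Complex III, the cytochrome bc1 complex, was split, with 2 of 4 genes lower and 2 higher, a median of -0.03, and 0 passing. The median was -0.10 without control 2 and 0.02 without control 3, so 1 array decides its sign. *Uqcr*, now called *Uqcr11*, a small subunit, read 8.77, 8.76 and 9.06 in the controls and 8.76, 8.66 and 8.79 in the knockouts. The groups overlapped, control 3 stood above the rest, and the log2 difference was -0.13 (SE 0.09, limma adjusted p = 0.541). Without control 3 it was -0.03. *Uqcrq*, another small subunit, read 8.01, 7.94 and 7.97 in the controls and 8.01, 7.89 and 7.81 in the knockouts, a difference of -0.07 (SE 0.06, limma adjusted p = 0.622). *Uqcrb*, read by 1 probe set, had 9.18, 8.88 and 9.40 in the controls and 9.27, 9.13 and 9.13 in the knockouts. Its controls spread over 0.52, wider than the knockouts, and its difference of 0.02 had the widest interval of the members, from -0.26 to 0.30. *Uqcrfs1*, the Rieske iron-sulphur protein, differed by 0.0033 (95% interval -0.17 to 0.17).

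Complex IV, cytochrome c oxidase, had 4 lower and 3 higher of 7 genes, with a median of -0.0033 and 0 passing. The median was -0.04 without control 1, -0.06 by the brightest probe sets and 0.02 without *Cox7a2l* and *Cox7c*, the 2 genes read at other places. *Cox7a2l*, which helps join complexes III and IV into supercomplexes, read 8.34, 8.23 and 8.22 in the controls and 8.13, 7.95 and 8.00 in the knockouts. The groups did not overlap, and the log2 difference was -0.23 (SE 0.06, limma adjusted p = 0.230). Its 2 probe sets were unlike. At the first the controls read 7.80, 7.82 and 7.80 and the knockouts 7.46, 7.42 and 7.35, a difference of -0.40, while the second had -0.07 with overlapping groups. Both probe sets are placed on chromosome 12, while the gene lies on chromosome 17. The first had the smallest adjusted p of any member's probe set in the limma fit over all 58919 probe sets, 0.522.

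*Cox5b*, a structural subunit of the oxidase, read 10.67, 10.62 and 10.71 in the controls and 10.55, 10.70 and 10.58 in the knockouts. Knockout 2 lay among the controls. The log2 difference was -0.06 (SE 0.06, limma adjusted p = 0.689), and all 6 probe sets were lower, by 0.11 at most. *Cox7c*, a small subunit, differed by -0.0033 (95% interval -0.11 to 0.10).

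The name rule also takes 3 assembly factors of the oxidase, whose differences ran from -0.01 to 0.07. *Cox11*, which delivers copper, read 8.44, 8.50 and 8.28 in the controls and 8.44, 8.57 and 8.42 in the knockouts, a log2 difference of 0.07 with an SE 0.07 (limma adjusted p = 0.694). *Cox10*, which makes heme O for the oxidase, had 0.02 and *Cox16* had -0.01. *Cox8c*, a testis isoform, had a gene mean of 4.52 ± 0.10 (SD, n = 3) in controls, with a difference of 0.06. Its probe sets were unlike in level, averaging from 2.75 to 6.29 in the controls.

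Of the 6 genes named for the ATP synthase, 4 were lower and 2 higher, with a median of -0.03, and 0 passed. The median was -0.06 after quantile normalization and -0.02 without knockout 3. *Atp5h*, a subunit of the peripheral stalk, read 10.65, 10.60 and 10.65 in the controls and 10.41, 10.49 and 10.41 in the knockouts. The groups were 0.11 apart at the closest arrays. The log2 difference was -0.20 (SE 0.05, limma adjusted p = 0.215), and it ran from -0.22 to -0.18 with 1 array left out. It rests on 1 probe set, since the others that name *Atp5h* also name other genes.

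*Atp5g1*, which encodes the c-ring subunit, read 8.59, 8.43 and 8.56 in the controls and 8.40, 8.62 and 8.34 in the knockouts. Its mean joins a dim probe set at 0.08 and a bright one at -0.23, and only at the bright one did the groups not overlap. *Atp5f1*, now *Atp5pb*, a peripheral stalk subunit, read 10.29, 10.29 and 10.35 in the controls and 10.23, 10.30 and 10.28 in the knockouts, a difference of -0.04 (SE 0.05, limma adjusted p = 0.737). *Atp5b*, the catalytic beta subunit with 11 probe sets, differed by 0.01 (95% interval -0.13 to 0.15). *Atp5d*, the delta subunit of the central stalk, differed by -0.02 (95% interval -0.13 to 0.08). *Atp5s*, now called *Dmac2l*, differed by 0.01.

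Among the genes of inner membrane import, 5 of 6 were lower and 1 higher, with a median of -0.06, and 0 passed. The median ran from -0.08 to -0.05 with 1 array left out. *Timm22*, the channel of the carrier translocase, read 7.56, 7.46 and 7.43 in the controls and 7.36, 7.22 and 7.42 in the knockouts. The groups were apart by 0.02 at the closest arrays, control 3 and knockout 3. The log2 difference was -0.15 (SE 0.07, limma adjusted p = 0.355), and all 6 of its probe sets were lower, from -0.28 to -0.06. Without knockout 2 the difference was -0.10.

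*Timm8a1*, a small chaperone of the intermembrane space, read 5.90, 5.96 and 6.19 in the controls and 5.60, 5.89 and 5.78 in the knockouts, a log2 difference of -0.26 with an SE 0.10 (limma adjusted p = 0.310). It was dim, and its probe sets are placed on chromosome 10 although the gene lies on the X chromosome. Without knockout 1 the difference was -0.18, and without control 3 it was -0.17. *Timm13*, its partner chaperone, read 7.10, 7.02 and 7.01 in the controls and 7.07, 6.94 and 6.94 in the knockouts. It differed by -0.05 (SE 0.06, limma adjusted p = 0.694), with all 5 probe sets lower, by 0.08 at most. *Timm9*, another small chaperone, differed by -0.06, *Timm23*, the channel for presequence proteins, by -0.04, and *Timm17a*, which pairs with that channel, by 0.03.

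For outer membrane import the deposited table holds only 2 paralogs of core subunits. The core subunits are missing from this partial table, which is no result about them. *Tomm20l* was dim by the mean of its probe sets, though its brightest averaged 8.36 in the controls. The gene read 5.03, 5.12 and 5.12 in the controls and 5.02, 4.99 and 5.03 in the knockouts. Its log2 difference was -0.08 (SE 0.05, limma adjusted p = 0.496). *Tomm40l* read 7.88, 7.87 and 8.04 in the controls and 7.94, 7.90 and 7.96 in the knockouts, a difference of 0.0024 (SE 0.06, limma adjusted p = 0.990). Its 11 probe sets ran from -0.31 to 0.43, and by their median the difference was 0.32 (limma adjusted p = 0.407). The highest, which read 8.07, 8.33 and 8.14 in the controls and 8.45, 8.49 and 8.88 in the knockouts, was the 1 member probe set higher at a raw p below 0.05.

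**Figure D3:**
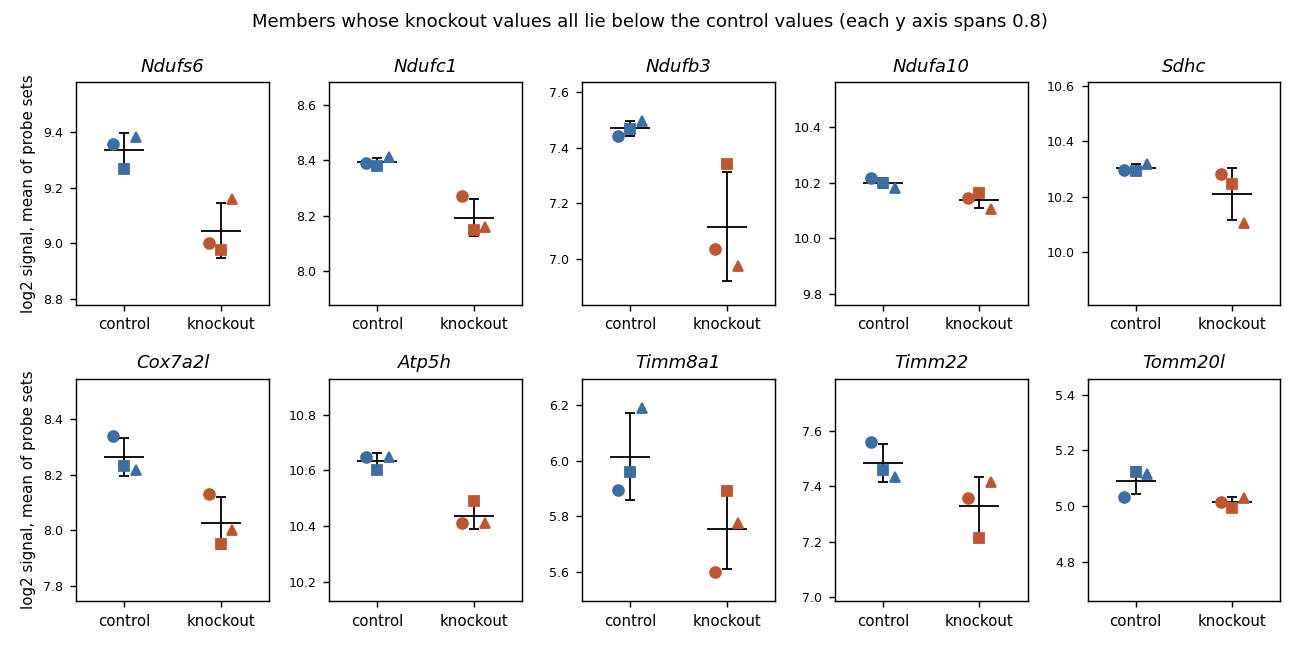
Log2 signal (mean of all probe sets; each y axis spans 0.8) on every array for the 10 members whose 3 knockout values all lie below all 3 control values. Circles, squares and triangles are replicates 1, 2 and 3, and bars give the mean and SD of 3 arrays. The gap is 0.11 for *Atp5h* at the closest arrays and 0.02 for *Timm22*.

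Probe sets leaned as the gene means did. Of 164 member probe sets 109 were lower, 52 higher and 3 equal. The lower ones make up 66.5%, against 47.2% of all 58919, and 0 passed in the limma fit over all probe sets (0.00509% of all did). Of the 155 probe sets of the 28 other genes, 100 were lower, or 64.5%. At a raw p below 0.05, 10 of the 164 were lower and 1 higher, and 7 and 1 of the 155, where 2.94% of all probe sets were lower and 4.75% higher. Of all those below that p, 2799 of 4531 were higher as deposited and 2341 of 4500 after quantile normalization. No member probe set differed by 1 or more in size. In 8 of the 23 members with at least 3 probe sets every probe set was lower (34.8%), and in 0 every one was higher. Among all 4208 such genes the shares were 7.56% and 5.25%. Members had a median of 4 probe sets and all genes 8, and fewer probe sets more often share a sign. Probe sets of a gene read the same RNA and are not independent.

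**Figure D4:**
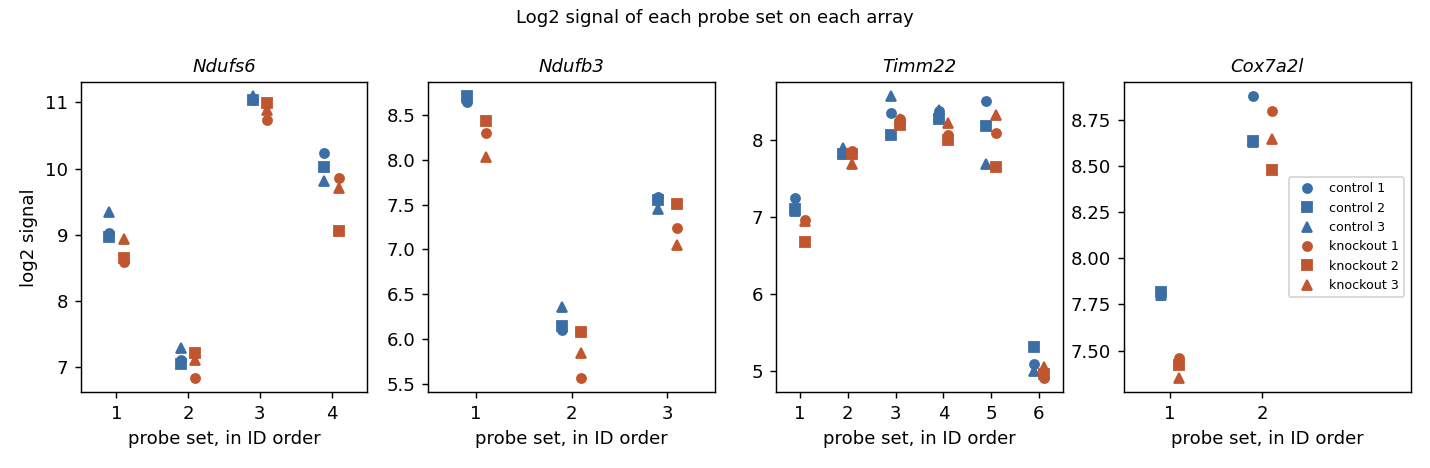
Log2 signal of each probe set (x axis, in the order of their numbers) on every array for *Ndufs6*, *Ndufb3*, *Timm22* and *Cox7a2l*; blue marks controls and orange knockouts. Probe set means are lower in the knockouts throughout, by 0.40 at the first probe set of *Cox7a2l* and by 0.07 at its second.

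Over the 6 arrays, the members' median deviation from each gene's control mean was -0.05, -0.04 and -0.05 in knockouts 1, 2 and 3. It was 0.0029, -0.03 and 0.03 in controls 1, 2 and 3. Control 2 thus lay close to the knockouts, with 28 of 34 members below their control mean, beside 22, 25 and 24 in the knockouts. Control 3 alone was the highest of the 6 arrays in 16 members. The spread among the controls was thus about as wide as the distance between the groups.

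The promoters of the members with the smallest raw p among those read at their own chromosome are shown because sites of the nuclear respiratory factor NRF1, of ETS factors such as GABPA and of YY1 are known from promoters of respiratory chain genes. Each runs 5′ to 3′ on the gene's strand, from 250 bases before the transcription start to 50 after it, from RefSeq on GRCm38.p6. Capitals mark matches to TGCGCA (the NRF1 core), CCGGAAG (ETS) and AAGATGGC (YY1), searched on both strands. *Ndufs6* lies at chr13:73328433-73328732 on the minus strand, *Atp5h* at chr11:115419870-115420169 on the minus strand and *Ndufb3* at chr1:58586147-58586446 on the plus strand.
Ndufs6: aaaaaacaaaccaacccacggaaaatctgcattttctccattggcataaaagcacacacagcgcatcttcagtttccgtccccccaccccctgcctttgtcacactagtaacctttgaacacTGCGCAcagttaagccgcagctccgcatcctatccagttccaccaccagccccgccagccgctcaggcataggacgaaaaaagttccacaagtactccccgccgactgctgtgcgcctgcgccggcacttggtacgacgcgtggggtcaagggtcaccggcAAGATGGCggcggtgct
Atp5h: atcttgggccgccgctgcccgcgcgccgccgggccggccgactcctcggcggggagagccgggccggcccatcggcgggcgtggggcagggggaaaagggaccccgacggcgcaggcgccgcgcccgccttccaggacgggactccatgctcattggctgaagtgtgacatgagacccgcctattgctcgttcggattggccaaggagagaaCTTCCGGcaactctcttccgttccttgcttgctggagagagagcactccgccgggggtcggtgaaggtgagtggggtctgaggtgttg
Ndufb3: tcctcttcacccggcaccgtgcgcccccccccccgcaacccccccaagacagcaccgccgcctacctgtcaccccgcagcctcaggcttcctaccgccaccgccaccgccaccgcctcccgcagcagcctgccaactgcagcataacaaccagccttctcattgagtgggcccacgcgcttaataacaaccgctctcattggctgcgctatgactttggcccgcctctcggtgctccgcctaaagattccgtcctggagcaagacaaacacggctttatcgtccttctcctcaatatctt

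*Ndufs6* held an NRF1 core match and a YY1 match, *Atp5h* an ETS match, and *Ndufb3* none of the 3 motifs. RefSeq entries were found for 27 of 34 members, with 30 promoters in all. TGCGCA was in 5 of these (16.7%), beside 7.76% of all 32851 promoters of the same length. The ETS letters were in 6 (20%, beside 8.86%) and the YY1 letters in 5 (16.7%, beside 2.75%). GGGCGG was in 11 (36.7%, beside 35.7%) and CCAAT in 10 (33.3%, beside 37.4%). Promoters of the same gene were counted separately, and *Cox16* enters the ETS, GGGCGG and CCAAT counts repeatedly. None of these motifs contains another. A match is a stretch of letters and not a bound site.

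Other genes of energy metabolism and mitochondria, from 7 lists that include cytosolic glycolysis, did not pass either: 0 of 52 measured genes did. The lists name 198 genes, and those not found in this partial table under a single symbol are left out. Of 15 measured genes for cytochrome c, coenzyme Q and chain assembly, 12 were lower and 3 higher, with a median of -0.04. *Bcs1l*, which inserts the Rieske protein into complex III, had the smallest raw p, averaging 7.96 ± 0.11 (SD, n = 3) over the controls and 7.79 ± 0.02 (SD, n = 3) over the knockouts, with a log2 difference of -0.17 with an SE 0.06 (limma adjusted p = 0.290). *Chchd10*, a protein of the intermembrane space, had -0.13 (SE 0.05). Of the 4 measured import partners, 2 were lower and 2 higher. All 3 probe sets of 1 of them, *Pam16*, are placed on another chromosome. The matrix chaperonin pair differed in sign, with *Hspe1* at -0.15 (SE 0.08) and *Hspd1* at 0.11 (SE 0.06).

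The tricarboxylic acid cycle, which feeds electrons to the chain, had 3 of 6 genes lower and a median of -0.02. *Dld*, a subunit shared by the 2-oxoacid dehydrogenases, was at 0.19 (SE 0.09) and *Pdk2*, a kinase of pyruvate dehydrogenase, at -0.05 (SE 0.04). In glycolysis 4 of 6 were lower with a median of -0.02, with *Pfkl*, a phosphofructokinase, at -0.04 and *Pgk1*, read only at places on another chromosome, at -0.06. Of 9 genes listed as mitochondrial membrane carriers 5 were lower, with *Slc25a39* at -0.12 (SE 0.06) and *Mcu*, the calcium uniporter, at 0.11 (SE 0.06). The 5 include the outer membrane porins *Vdac1*, at -0.0074, and *Vdac3*, at -0.10. All 4 probe sets of *Vdac3* and the 1 of *Mpc1* are placed on another chromosome. Of 5 genes of mitochondrial dynamics 3 were lower. Among them *Mief2*, a receptor for the fission machinery, averaged 6.53 ± 0.02 (SD, n = 3) over the controls and 6.37 ± 0.02 (SD, n = 3) over the knockouts, with a difference of -0.17 (SE 0.04, limma adjusted p = 0.230), and *Phb*, a prohibitin, at -0.07. Of 7 genes of mitochondrial biogenesis 4 were lower, with *Ssbp1*, which binds mitochondrial DNA and is read here by 1 probe set placed on another chromosome, at -0.11 and *Mtif2*, a translation factor, at -0.06.

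Markers of brain cell types were thinly covered, with 18 of 85 listed genes found in the table. Of 3 measured neuronal markers 1 was lower and 2 higher, with a median of 0.05, and their mean log2 signal ran from 10.92 to 10.96 in controls and from 10.92 to 10.98 in knockouts. Of 5 astrocyte markers 3 were lower, with a median of -0.15 and a mean signal from 9.65 to 9.86 in controls and 9.53 to 9.72 in knockouts. *Gfap* was at -0.48 (SE 0.25), *S100b* at -0.21 and *Gja1* at -0.15, while *Atp1b2* was at 0.11 and *Sox9* at 0.04. All 3 measured microglial markers were lower, with a median of -0.17 and a mean signal from 6.39 to 6.56 in controls and 5.76 to 6.55 in knockouts. Knockout 2 was the lowest array for each of them, and without it *Ptprc* and *Fcgr3* were higher in the knockout, at 0.05 and 0.14, and *Cd68* lower, at -0.15. The 1 measured marker of oligodendrocytes was at -0.05. Those of endothelium and pericytes, 2 in number, had a median of 0.02, and those of choroid plexus and ependyma, 3 in number, -0.03. Of the latter, *Kcnj13* was at 0.21, *Foxj1* at -0.06 and *Ace* at -0.03. The 1 measured red cell marker, *Slc4a1*, was at -0.36 (SE 0.07, limma adjusted p = 0.215). *Gfap*, *Slc4a1* and, over all arrays, *Cd68* at -0.41 differed by more in size than any member. No marker passed. The part of any of these cell types in the members' values was not tested.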

How the data were processed

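The authors deposited log2 signals per probe set, made with MAS5 per the submitters' processing notes, and give them with 2 decimals. That they are log2 was read from their range, 1.69 to 14.41. No source used here says how arrays were scaled to each other. The table holds 65535 probe sets. Of these, 6616 with numbers below the first named one were taken as control features and left out, from knowledge of how such numbers are ordered. Symbols came from the platform's annotation and were updated through RefSeq (GRCm38.p6) where they matched. Of 58919 tested probe sets, 53644 had 1 symbol, 877 several and 4398 none. They gave 5017 genes, and 25 probe sets that name a member beside another gene were not used. Because array medians differed by only 0.05, under a limit of 0.1, no normalization was added.

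Means over all probe sets of each gene were fitted with limma 3.58.1 (R 4.3.3, lmFit and eBayes, two-sided) on all 5017 genes. P-values were adjusted by Benjamini-Hochberg over all of them, at a threshold of 0.05, and single probe sets were fitted the same way. With 3 arrays against 3, an exact permutation test cannot go below 0.1, and the number of arrays limits the precision. On simulated data for this comparison with 5017 genes, calls were made for 64 of 67 genes with a 1.5-fold change, for 65 of 67 at 2-fold and for 66 of 66 at 4-fold, and 9 calls were false. Changes smaller than 1.5-fold were not simulated, and the differences of all members were smaller than that. The simulation therefore does not show how often changes of the members' size would be called. The simulated noise was independent between genes, which real arrays need not share. Members and gene lists were chosen with earlier results of these data known. Every member is named. Values on every array are given for up to 3 members per complex with the smallest raw p and for those whose groups do not overlap. At least 2 genes are named from each of the 7 pathway lists. The 10 nearest named probe sets of other genes on either side were pooled. A probe set was called placed elsewhere when their commonest chromosome was not the gene's own. Promoter motifs were chosen after the members' values had been seen. A longer NRF1 motif was also searched and its counts are not shown, so the motifs given are not all that were tried.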

Additional observations from a re-analysis of the deposited data

Results flagged for a closer look

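The array's control features, which entered no comparison, had a higher median log2 signal on the knockout arrays. It was 4.12 in the controls and 4.25 in the knockouts (means of 3 array medians), a difference of 0.133, while the median difference of the 34 respiratory chain and import genes was -0.04. Groups of 3 arrays are too small for a search for single outlying arrays.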

How the results depend on the processing

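No gene passed in any of these fits: 0 of all genes and 0 members under every normalization, gene summary, filter, variance model, array weighting and array left out (706 genes at raw p below 0.05 in limma with the values as deposited). With the values as deposited 0 genes were below an adjusted p of 0.1, while the smallest over all genes was 0.0592 with trend and robust moderation and 0.0836 without control 2. With trend and robust moderation *Atp5h* was at 0.0765 and *Ndufs6* at 0.0835. Members' smallest adjusted p ran from 0.0765 with trend and robust moderation to 0.503 without control 1. The median over members was -0.071 after quantile normalization and -0.062 to -0.022 with 1 array left out, and members lower in the knockout numbered 23 to 32 among the settings that keep at least 33 of the 34. Single probe sets passing, 3 in all as deposited, were 6 after quantile normalization, 7 after median centring, 21 with trend and robust moderation and 0 to 4 with 1 array left out, none of them a member's. With the replicate number as a block 0 probe sets and 0 genes passed. Arrays of equal number did not deviate together (correlations of 0.021, -0.080 and -0.057), and not every array correlated best with its own number. After quantile normalization these log2 differences had the other sign: *Ndufs7* -0.020, *Uqcrb* -0.0078, *Uqcrfs1* -0.023, *Cox10* -0.0071, *Dmac2l* -0.013, *Atp5b* -0.013, *Timm17a* -0.0019 and *Tomm40l* -0.021. After median centring these log2 differences had the other sign: *Ndufs7* -0.015, *Uqcrfs1* -0.017, *Cox10* -0.0038, *Dmac2l* -0.006, *Atp5b* -0.011 and *Tomm40l* -0.018. By brightest probe sets these log2 differences had the other sign: *Ndufa12* 0.13, *Cox8c* -0.063 and *Dmac2l* -0.033. By the median of probe sets these log2 differences had the other sign: *Ndufs7* -0.027, *Ndufs1* 0.10, *Atp5d* 0.033, *Atp5b* -0.033 and *Slc25a39* 0.030. With array weights these log2 differences had the other sign: *Ndufs1* 0.023, *Cox7c* 0.0093, *Dmac2l* -0.0016 and *Atp5b* -0.031. With 1 array left out the sign of these varied, in ranges of: *Cox10* -0.044 to 0.053, *Tomm40l* -0.026 to 0.056, *Ndufs7* -0.016 to 0.018, *Uqcrb* -0.11 to 0.15, *Uqcrfs1* -0.062 to 0.071, *Cox16* -0.064 to 0.077, *Atp5b* -0.021 to 0.063, *Timm17a* -0.0047 to 0.064, *Ndufa4l2* -0.10 to 0.028, *Ndufs1* -0.053 to 0.083, *Cox7c* -0.015 to 0.015, *Dmac2l* -0.0067 to 0.031 and *Pgk1* -0.16 to 0.0028. None of these values passed the test, and the causes were not tested. Leaving out probe sets placed on another chromosome was chosen after seeing the data. With the dimmest probe sets left out 1 member had no probe set left. The gene means of *Cox8c*, *Tomm20l* and *Ndufa4l2* were low. Those of *Cox8c* and *Tomm20l* join probe sets above and below the median of the control features.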

Other observations

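Updating the annotation's older names through RefSeq adds 4 genes that the name rule leaves out and removes *Dmac2l*. All 4 were lower in the knockout as deposited, and none passed limma's test. *Atp5mpl*, a small ATP synthase subunit annotated as 2010107E04Rik, read 9.21, 9.19 and 9.36 in the controls and 8.99, 8.95 and 9.05 in the knockouts. The groups did not overlap, and the log2 difference was -0.26 (SE 0.06, limma adjusted p = 0.215). *Uqcr10*, a small subunit of complex III annotated as 1110020P15Rik, read 7.12, 7.06 and 7.16 in the controls and 7.02, 6.89 and 6.95 in the knockouts, again without overlap, at -0.16 (SE 0.05, limma adjusted p = 0.274). *Sdhaf4*, an assembly factor of complex II, was at -0.15 (SE 0.08) and *Cox20*, an assembly factor of complex IV, at -0.10 (SE 0.07), both with overlapping groups. By current symbols 28 of 37 members were lower, against 51.4% of all genes, with a median of -0.06. At a raw p below 0.05, 9 were lower and 0 higher, where 6.12% of all genes were lower and 7.95% higher.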
